A study of Bos taurus with 31 samples.

Results

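Genes of the insulin-like growth factor (IGF) family were followed in mammary epithelial organoids of dairy cows before a first pregnancy and in lactation. The family was taken by gene name as IGF1, IGF2, IGF2R, IGFBP2 to IGFBP7 and PAPPA, which are 10 genes. Of these, 8 were matched by symbol among the 14084 rows of the count table, and all 8 passed the filter on low counts. IGF1 and IGFBP3 had no match by symbol and are not analysed here.

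Organoids, which are clusters of epithelium with the cells that stay attached to it, were freed from biopsies of the gland by digestion with collagenase, trypsin and hyaluronidase in medium with foetal calf serum and insulin. The same preparation was used for both groups. The virgin group held 15 libraries of animals at 14 months of age, and the lactating group held 16 libraries at 40 to 60 days of lactation. They came from 16 cows, of which 15 gave both stages and the cow of L495 gave only a lactating library, so that 15 pairs of libraries could be formed. A library is named here by the letter of its stage and the number of its cow, as V502 and L502. No breed, allele or treatment apart from stage is used here, and the age of the cow, her calving and the date of the biopsy all change with stage, so that these cannot be told apart.

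IGF1 and IGF2 are secreted growth factors that signal through the tyrosine kinase receptor IGF1R and its hybrids with the insulin receptor. IGF2R, the cation-independent mannose 6-phosphate receptor, takes up IGF2 for breakdown in lysosomes and also carries lysosomal enzymes. The IGF binding proteins (IGFBPs) hold the ligands outside the cell, and proteases such as PAPPA cut them and free the ligand. In the mammary gland the axis is known for its part in duct growth, in cell survival during lactation and, for IGFBP5, in involution.

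Total counts, with rows of identical counts taken once, ran from 12477568 to 38794104 in virgin and from 17637505 to 45478555 in lactating libraries. Values below are CPM, read counts scaled to a common library size with trimmed mean of M-values (TMM) factors. From the recovered locus lengths, counts were taken as summed over whole gene spans, introns included. Levels are therefore compared between libraries and not between genes. Genes for milk proteins took 5.23% to 51.95% of the counts in 14 lactating libraries but 0.65% in L478 and 0.32% in L538, against 0.07% to 0.81% in virgin libraries. Among virgin libraries, V502 stood apart by a summed level of 16 fibroblast markers of 24232 CPM, where the virgin median was 1403 CPM. V479 stood apart by its low share of reads over long genes: the offset of genes over 100 kb against genes under 10 kb was -1.21 on the log2 scale, against -0.23 to 0.38 in the other virgin libraries. Main results below are therefore also given without some or all of these 4 libraries. The 4 were chosen after the data were seen.

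In lactation 3 of the 8 genes were higher and 0 were lower by edgeR's quasi-likelihood test at an adjusted p under 0.05. The 3 were IGF2R, IGFBP5 and IGFBP7. Over all 13180 rows tested, 24.2% were called higher, 30.9% lower and 55.1% in either direction, so a share of this size among 8 genes is not a result about the IGF family. The median log2 fold change of the 8 genes was 0.63, against -0.08 over all rows tested. No gene of the 8 changed by more than 2-fold in edgeR's glmTreat test, where 8.19% of all rows did (5.39% higher and 2.8% lower), and 0 of the 8 reached an unadjusted p under 0.05 there. At an unadjusted p under 0.05 in the quasi-likelihood test, 4 of the 8 were higher and 0 lower, and neither DESeq2 nor limma-voom called any of the 8 lower.

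The count of called genes moved with the pairing of animals and with single libraries. When each cow served as her own block, 7 of the 8 were called higher, against 27.9% of all rows, and only IGFBP2 (adjusted p = 0.0549) was not. Without V479 and V502, all 8 were called higher, against 28.8% of all rows, with a median log2 fold change of 0.89. For each of the 8 genes, however, the highest virgin value was in V479 or V502. A higher count is therefore partly built into leaving these libraries out. Without L478 and L538 the count was 6, against 24.1%, and without all 4 libraries it was 8, against 28.7%. DESeq2 called 4 (25.2% of all rows) and limma-voom 6 (28%). Without the 5 cows whose virgin titles carry a letter, of unstated meaning, after the number, 21 libraries were left and 1 gene, IGF2R, was called, against 18.3%. The count stayed at 3 with upper-quartile factors (23.4% of all rows), no filter on low counts (24.3%), a stricter filter (24.2%), each distinct locus once (23.8%) and the unpaired fit without L495 (23.4%). Without TMM factors 0 of the 8 were called, against 10.5% of all rows, and 0 reached an unadjusted p under 0.05; the median of the 8 was then 0.09 and that of all rows was -0.56. IGFBP2 (-0.080) and IGFBP4 (-0.078) were then on the other side of 0.

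**Figure D1:**
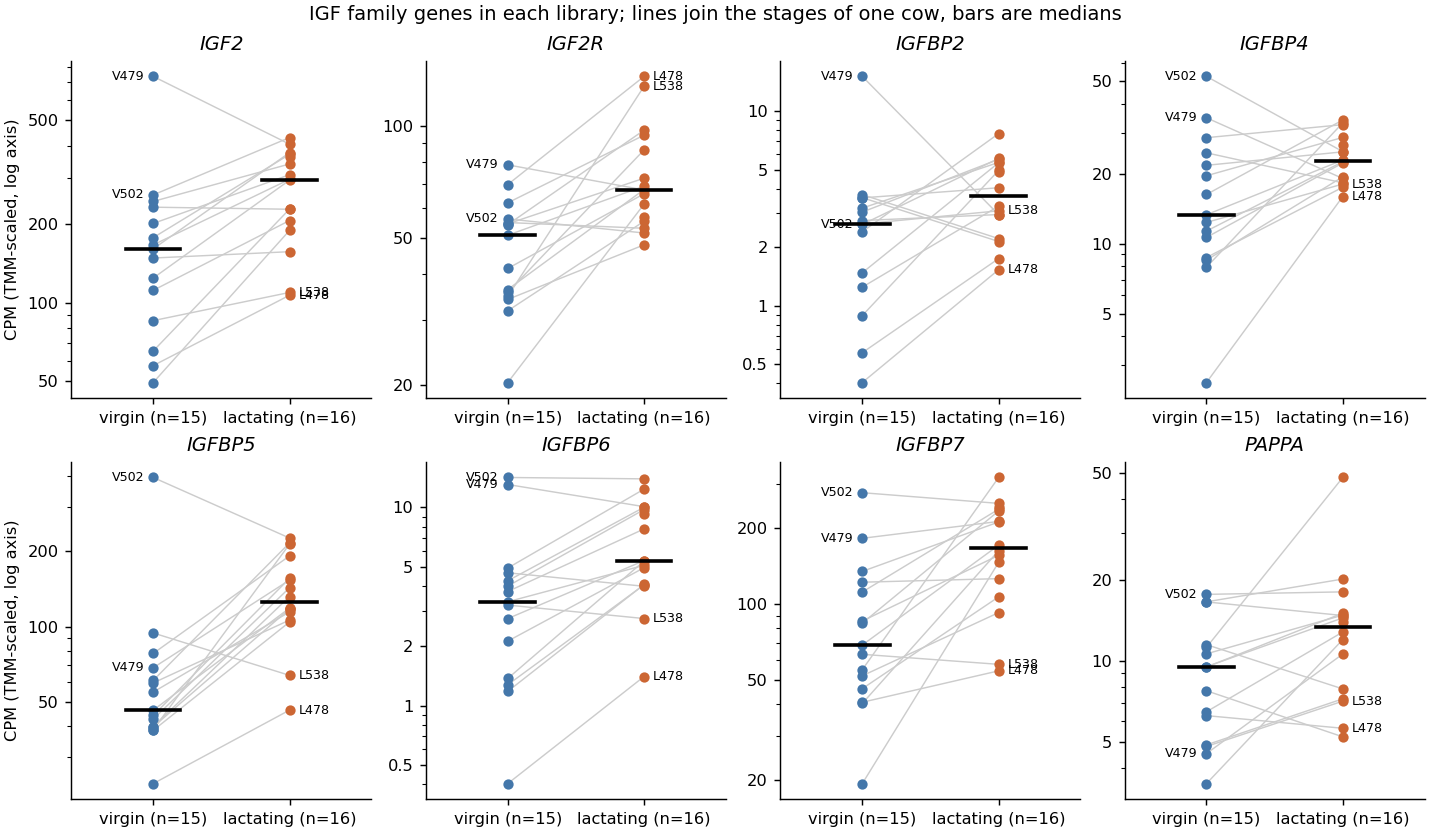
CPM (log axis) of each of the 8 IGF genes in 15 virgin and 16 lactating libraries, 1 point per library, with grey lines joining the stages of 1 cow and black bars at the medians. The groups overlap for every gene, and the highest virgin point of IGFBP5 and IGFBP7 is V502 (394.8 and 276.3 CPM) while that of IGF2 is V479 (737.6 CPM).

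Of the ligands, IGF2 (ENSBTAG00000013066), the growth factor expressed from the paternal allele in many mammalian tissues, was measured. Its level in virgin libraries had a lowest value of 49.4, a median of 160.9 and a highest value of 737.6 CPM, and in lactating libraries the corresponding values were 106.8, 296.2 and 429.8 CPM. The virgin maximum, V479, lay above every lactating library, while 13 of 16 lactating libraries lay above the virgin median. The mean was 188.1 ± 166.3 CPM (SD, n = 15) in virgin and 275.8 ± 103.3 CPM (SD, n = 16) in lactating libraries. The log2 fold change was 0.55 ± 0.29 (SE), which did not pass the test (edgeR adjusted p = 0.105). Within animals IGF2 was higher in lactation in 13 of 15, and blocking on the animal gave 0.76 (adjusted p = 0.00108). Without V479 alone the unpaired fit gave 0.89 (adjusted p = 0.00198). The 2 cows with lower IGF2 in lactation were those of V479 (log2 difference -0.86) and V581 (-0.03). IGF2 shares its counted locus with bta-mir-483, a microRNA, and the rows of both held identical counts, so their reads cannot be told apart here.

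The IGF2 receptor IGF2R (ENSBTAG00000002402) was higher in lactation. Virgin libraries had a lowest value of 20.3, a median of 50.8 and a highest value of 78.7 CPM. Lactating libraries had 47.8, 67.4 and 136.6 CPM in the same order. The 5 lactating libraries above every virgin one were L478, L538, L504, L581 and L468, and the 2 highest, 136.6 CPM in L478 and 128.4 CPM in L538, were the libraries with the lowest share of milk protein reads. The mean went from 47.7 ± 15.9 CPM (SD, n = 15) to 75.8 ± 26.6 CPM (SD, n = 16), a 1.59-fold rise (log2 fold change 0.67 ± 0.17 SE; adjusted p = 0.00129 by edgeR). IGF2R was higher in 12 of 15 animals. Without L478 and L538 the log2 fold change was 0.51 (adjusted p = 0.0063), so the call did not need those libraries. Without TMM factors it was 0.28 (adjusted p = 0.203).

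Of the 5 binding proteins measured, IGFBP5 and IGFBP7 were called higher. IGFBP5 (ENSBTAG00000007062) binds IGFs and extracellular matrix and is a known marker of the involuting gland. Its virgin values were 23.6 at the lowest, 46.3 at the median and 394.8 CPM at the highest, and its lactating values were 46.4, 125.3 and 226.0 CPM. V502 alone lay above all lactating libraries, and all 16 lactating libraries lay above the virgin median. The mean was 74.99 ± 90.3 CPM (SD, n = 15) in virgin and 138.9 ± 52.2 CPM (SD, n = 16) in lactating libraries, a 1.85-fold rise (log2 fold change 0.89 ± 0.30 (SE), edgeR adjusted p = 0.0138). It was higher in 13 of 15 animals, the exceptions being the cows of V502 (log2 difference -0.80) and V538 (-0.56). With the animal as a block the log2 fold change was 1.22 (adjusted p = 6.06e-05). Without V502 it was 1.41 (adjusted p = 5.04e-07), and without both V479 and V502 IGFBP5 passed the test for a change over 2-fold (glmTreat adjusted p = 0.039), alone among the 8. Without the 5 cows with lettered titles it was 0.65 and not called (adjusted p = 0.172), and without TMM factors it was 0.31 (adjusted p = 0.369).

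IGFBP7 (ENSBTAG00000019368), a secreted protein of low affinity for IGFs that is abundant around blood vessels, was called higher as well. It had 19.4 CPM in the lowest, 68.8 CPM in the median and 276.3 CPM in the highest virgin library. The lactating values were 54.3, 166.9 and 317.6 CPM. Only L595 exceeded V502, and the lowest lactating values were those of L478 (54.3 CPM) and L538 (57.7 CPM). The mean rose 1.89-fold, from 92.2 ± 66.7 CPM (SD, n = 15) to 173.8 ± 74.98 CPM (SD, n = 16), or 0.92 ± 0.29 (SE) on the log2 scale (adjusted p = 0.00818 by edgeR). It was higher in 13 of 15 animals, by up to 2.85 on the log2 scale in the cow of V490. Without the 5 cows with lettered titles the log2 fold change was 0.88 (adjusted p = 0.0585), and without TMM factors it was 0.38 (adjusted p = 0.209).

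IGFBP4 (ENSBTAG00000008611), an inhibitor of IGF action and the main substrate of PAPPA, did not pass the test. Its values were 2.53, 13.3 and 52.5 CPM at the lowest, median and highest virgin library and 16.0, 22.7 and 34.1 CPM at the corresponding lactating ones. All 16 lactating libraries were above the virgin median, but V502 and V479 (34.8 CPM) lay above every lactating library. Lactating libraries were also the less spread, with a coefficient of variation of 24.6% against 70.5% in virgin ones. The log2 fold change was 0.39 ± 0.25 (SE, edgeR adjusted p = 0.201), and IGFBP4 was higher in 12 of 15 animals. With the animal as a block it was 0.65 (adjusted p = 0.0236), and without V502 alone it was 0.59 (adjusted p = 0.0279).

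IGFBP6 and IGFBP2 had the lowest counts of the 8, down to 14 reads in a library each. IGFBP6 (ENSBTAG00000021467), which binds IGF2 in preference to IGF1, had virgin values of 0.403, 3.34 and 14.2 CPM and lactating values of 1.40, 5.38 and 14.0 CPM at the lowest, median and highest library. The group ranges nearly coincided at the top, with V502 and V479 (13.1 CPM) as the highest virgin libraries. The log2 fold change was 0.69 ± 0.36 (SE, edgeR adjusted p = 0.107). IGFBP6 was higher in 11 of 15 animals and was called with the animal as a block (0.92, adjusted p = 0.000601), without V479 (0.91, adjusted p = 0.0263) and without V502 (0.95, adjusted p = 0.0187). IGFBP2 (ENSBTAG00000005596), a circulating and locally made binding protein, ran from 0.403 over a median of 2.63 to 15.1 CPM in virgin libraries and from 1.53 over 3.64 to 7.66 CPM in lactating ones. V479 held the highest value and was far above the next virgin library, V581 at 3.72 CPM. Its log2 fold change was 0.35 ± 0.34 (SE, edgeR adjusted p = 0.394), higher in 12 of 15 animals, and 0.79 without V479 (adjusted p = 0.0151).

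PAPPA (ENSBTAG00000004010) is the secreted metalloprotease that cuts IGFBP4 and IGFBP5. Its virgin values were 3.51, 9.51 and 17.7 CPM, and its lactating values were 5.24, 13.4 and 48.1 CPM, at the lowest, median and highest library. L595 held the highest value, more than 2 times that of L598 (20.2 CPM), and these and L502 were the 3 lactating libraries above every virgin one. The log2 fold change was 0.59 ± 0.27 (SE), just outside the threshold (edgeR adjusted p = 0.0626), and PAPPA was higher in 11 of 15 animals. It passed with the animal as a block (0.51, adjusted p = 0.0256) and in DESeq2 (0.60, adjusted p = 0.0473), but not in limma-voom (0.48, adjusted p = 0.115). Leaving out any 1 of L478, L504, L538, L581, V502, V598 or V610 also brought it under the threshold, with adjusted p between 0.0313 and 0.0467. Without L595, the library with the highest value, the log2 fold change was 0.34 (adjusted p = 0.211), and without TMM factors it was 0.0067 (adjusted p = 0.984).

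**Figure D2:**
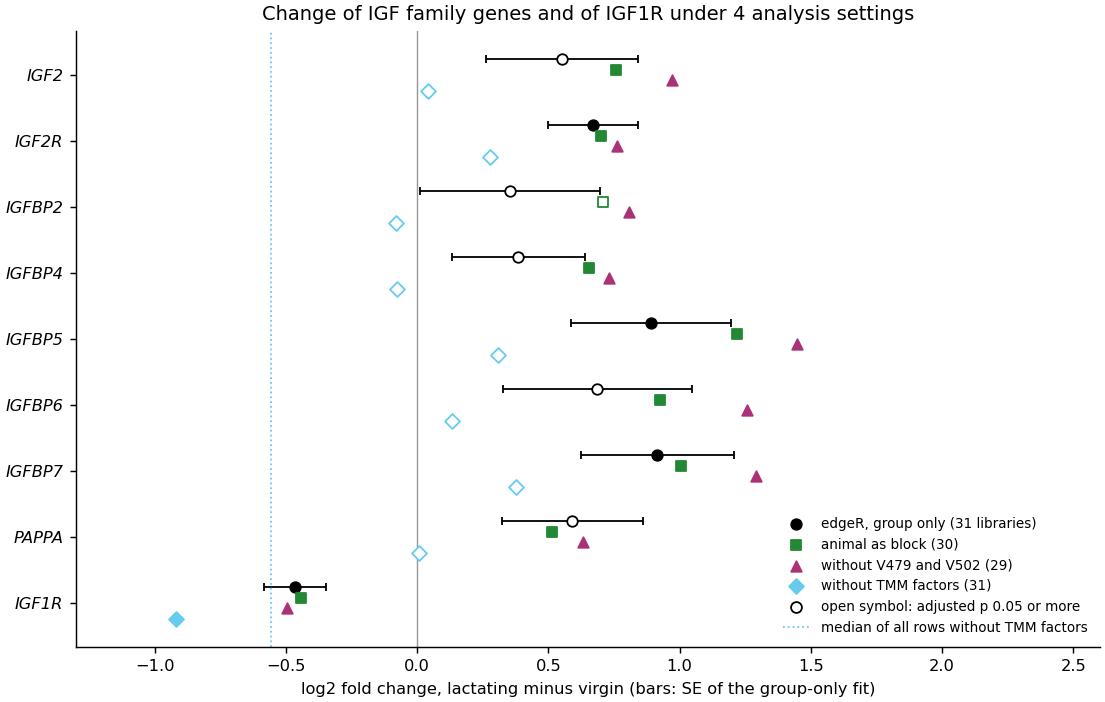
Log2 fold change, lactating minus virgin, of the 8 IGF genes and of IGF1R under 4 analysis settings, with SE bars on the group-only fit, open symbols for an adjusted p of 0.05 or more and a dotted line at the median of all rows without TMM factors (-0.56). The 8 IGF genes sit above 0 in the group-only fit, IGFBP7 highest at 0.92, while IGF1R sits at -0.47.

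The receptors on the cell surface and the adaptors below them did not share 1 direction. Of 37 other genes of the axis, 32 were in the table and tested, of which 11 rose, 7 fell and 14 did not pass, with a median log2 fold change of 0.18. Over all rows 24.2% rose and 30.9% fell. Without TMM factors 3 of the 32 rose and 14 fell, against 10.5% and 58.8% of all rows. IGF1R, the main signalling receptor, fell from 106.2 ± 23.7 CPM (SD, n = 15) to 76.9 ± 17.5 CPM (SD, n = 16). Its log2 fold change was -0.47 ± 0.12 (SE, edgeR adjusted p = 0.00136), with lower values in 13 of 15 animals. INSR, the insulin receptor, had 85.8 ± 25.3 and 74.8 ± 24.2 CPM (SD, n = 15 and 16; log2 fold change -0.20 ± 0.16 (SE), adjusted p = 0.298). It was called lower without L478, L538, V479 and V502 (-0.39, adjusted p = 0.028) and without TMM factors (-0.60, adjusted p = 0.00842). GHR, the growth hormone receptor that drives IGF1 production in liver, fell 2.31-fold (log2 fold change -1.21 ± 0.14 (SE), edgeR adjusted p = 1.19e-08), from 54.1 ± 17.2 to 23.4 ± 4.06 CPM (SD, n = 15 and 16), and was lower in all 15 animals, as were 5.52% of all rows.

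Downstream of the receptors, IRS1, the docking protein of the insulin and IGF receptors, rose 3.59-fold from 58.6 ± 21.3 to 210.4 ± 76.8 CPM (SD, n = 15 and 16; log2 fold change 1.84 ± 0.18 (SE), edgeR adjusted p = 8.89e-10). All 16 lactating libraries lay above the highest virgin one for IRS1 (123.0 against 106.0 CPM), as for 1.15% of all rows, and IRS1 was higher in all 15 animals, as were 7.41% of all rows. Its relative IRS2 rose 1.76-fold (log2 fold change 0.82 ± 0.14 (SE), edgeR adjusted p = 1.53e-05), and was not called without TMM factors (0.29, adjusted p = 0.076). PIK3R1, the regulatory subunit of phosphoinositide 3-kinase, rose 2.44-fold (adjusted p = 7.45e-09), while PIK3CA, a catalytic subunit, fell (log2 fold change -0.38 ± 0.15 (SE), adjusted p = 0.033). The call of PIK3CA was not followed under the other settings. FURIN, a proprotein convertase that also cuts the IGF1R precursor, rose 2.88-fold (adjusted p = 2.50e-09).

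The stanniocalcins, both regulators of PAPPA, moved in opposite directions in CPM. STC2, stanniocalcin-2, a covalent inhibitor of PAPPA, fell 13.9-fold, from 9.34 ± 9.21 to 0.657 ± 0.632 CPM (SD, n = 15 and 16), and was lower in all 15 animals (log2 fold change -3.80 ± 0.51 (SE), edgeR adjusted p = 2.70e-07). The groups still overlapped, with a lowest virgin value of 0.327 and a highest lactating value of 2.45 CPM. STC1, its relative and likewise an inhibitor of PAPPA, rose 1.78-fold (log2 fold change 0.83 ± 0.32 (SE), edgeR adjusted p = 0.0265), was not called without L595 (0.71, adjusted p = 0.0558), without the 5 cows with lettered titles (0.75, adjusted p = 0.132) or without TMM factors (0.16, adjusted p = 0.666), and was counted over a locus 4.08 times as long as its RefSeq gene, so reads of a neighbour may be included. PAPPA2, the homologue of PAPPA, was near 0.4 CPM in both stages, with 0.413 ± 0.365 and 0.322 ± 0.166 CPM (log2 fold change -0.38 ± 0.39 (SE), edgeR adjusted p = 0.433), and was called lower without TMM factors (-0.95, adjusted p = 0.0487). IGF2BP2, which binds IGF2 messenger RNA, fell 9.69-fold from 8.23 ± 4.86 to 0.837 ± 0.639 CPM (SD, n = 15 and 16; log2 fold change -3.28 ± 0.30 (SE), edgeR adjusted p = 2.81e-10). Every lactating library was under every virgin one for IGF2BP2 (highest 2.97 against lowest 3.02 CPM), as for 0.781% of all rows. LRP2, an endocytic receptor, was the other gene of the list that fell over 2-fold (log2 fold change -2.19 ± 0.38 (SE)).

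**Figure D3:**
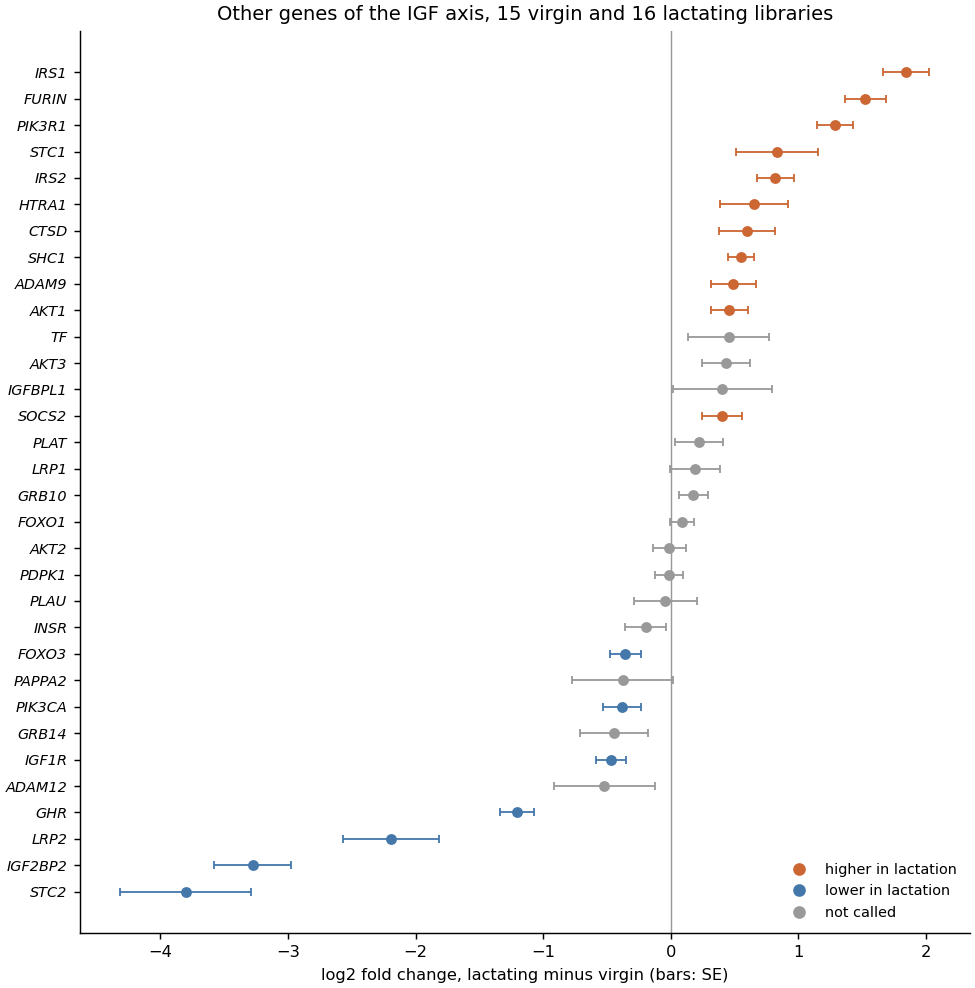
Log2 fold change (lactating minus virgin) with SE bars of the 32 other genes of the IGF axis, coloured by the call. STC2 (-3.80) and IGF2BP2 (-3.28) are lowest, and IRS1 (1.84) and FURIN (1.53) are highest.

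Markers of other cell types changed between the stages as well. Over all rows tested 24.2% were called higher and 30.9% lower, or 10.5% and 58.8% without TMM factors. All 16 endothelial markers rose in lactation, with a median log2 fold change of 2.26, and their summed level ran from 40.1 over a median of 189.4 to 906.3 CPM in virgin and from 309.0 over 1103.5 to 2166.5 CPM in lactating libraries. KDR, a receptor for vascular endothelial growth factor, rose 4.97-fold and CDH5, the cadherin of endothelial junctions, 5.48-fold. Of 16 macrophage markers 14 rose and 0 fell, with summed levels of 113.4 to 190.7 CPM in virgin and 246.0 to 755.6 CPM in lactating libraries. Of 10 lymphocyte markers tested 9 rose and 0 fell (summed 6.73 to 36.5 and 27.2 to 74.2 CPM), and of 9 adipocyte markers 7 rose and 1, PLIN1, fell (38.8 to 222.6 and 76.9 to 1897.5 CPM). Of the adipocyte rises, FABP4 and LPL are also known in endothelium and in secretory epithelium.

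Fibroblast markers moved less evenly: of 16, 2 rose, 5 fell and 9 did not pass, and the summed level ran from 437.8 to 24232 CPM in virgin and from 758.6 to 2397 CPM in lactating libraries. POSTN fell 4.08-fold and DCN 1.59-fold, whereas PDGFRB, a receptor of pericytes and fibroblasts, rose 2.13-fold, and was not called without TMM factors (log2 fold change 0.50, adjusted p = 0.224). COL1A1 fell 3.65-fold (edgeR adjusted p = 0.00998), but was not called without V502 (log2 fold change -0.21, adjusted p = 0.651), with the animal as a block (adjusted p = 0.995), in DESeq2 (adjusted p = 0.666) or in limma-voom (adjusted p = 0.881). The epithelial lists are set beside all rows, of which 24.2% rose and 30.9% fell, or 10.5% and 58.8% without TMM factors. Of 16 luminal markers 3 rose and 9 fell, with summed levels of 3201 to 12964 CPM in virgin and 2532 to 6379 CPM in lactating libraries. Of 14 basal and myoepithelial markers 2 rose and 6 fell (1770 to 6442 and 1468 to 2705 CPM). Epithelial markers were thus measured in every library of both groups. All 11 milk protein genes tested rose. No marker of any list was at 0 in all libraries of a group. In bulk samples, fewer cells of a type and less RNA per cell cannot be told apart, and the part of these markers in the IGF gene results was not tested.

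**Figure D4:**
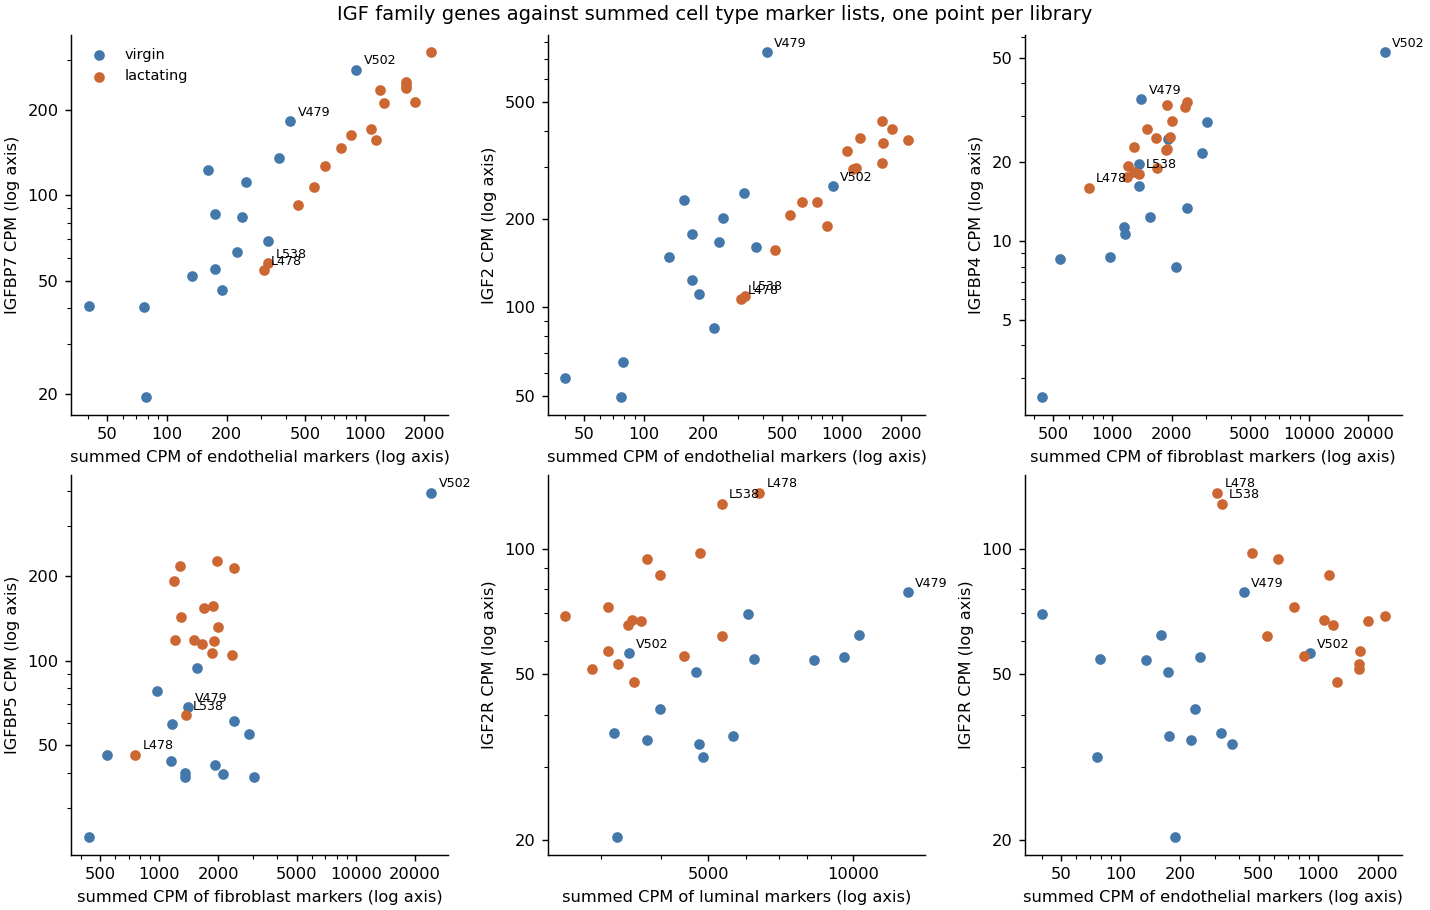
CPM of IGF genes against the summed CPM of a cell type marker list, both on log axes, 1 point per library, coloured by stage. IGFBP7 follows the endothelial sum in both stages (r of 0.83 in virgin and 0.97 in lactating libraries), and V502 is the virgin library at 24232 CPM of fibroblast markers. IGFBP7 also followed the adipocyte sum, which is not drawn (r of 0.81 in virgin and 0.89 in lactating libraries).

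Within a stage, where the difference between stages plays no part, some of the IGF genes varied together with some of these lists. PAPPA was called with no list in virgin libraries, and IGFBP2 with none in lactating ones. Correlations were computed on log2(CPM + 1) with two-sided permutation p-values adjusted over 112 relations of a gene with a list. The points share the library, its depth and its TMM factor. In lactation IGFBP7 and the endothelial sum had a Pearson r of 0.97 (p = 1e-05, the smallest the resamples allow, adjusted p = 0.00016) and a Spearman rho of 0.95 (p = 1e-05, adjusted p = 0.000373). Leaving out L478 and L538, which are also the samples farthest from the median, left an r of 0.96. The virgin libraries gave an r of 0.83 (p = 0.00013, adjusted p = 0.00112) and a rho of 0.81 (p = 0.00032, adjusted p = 0.00414), and 0.80 without the 2 farthest samples. Without V479 and V502 the virgin r was 0.70 (adjusted p = 0.0274). IGFBP7 followed the adipocyte sum about as closely in virgin libraries, with r = 0.81 (adjusted p = 0.0012). That r was 0.64 without V479 and V502 (adjusted p = 0.0587).

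IGF2 and IGFBP6 followed the endothelial sum in lactation too. For IGF2 the Pearson r was 0.95 (p = 1e-05, adjusted p = 0.00016) and the Spearman rho 0.91 (p = 1e-05, adjusted p = 0.000373), and r was 0.90 without L478 and L538. For IGFBP6 the r was 0.90 (p = 1e-05, adjusted p = 0.00016) and the rho 0.91 (p = 1e-05, adjusted p = 0.000373), and r was 0.83 without them. These relations were not particular to the endothelial list. With the adipocyte sum in lactation r was 0.93 for IGF2, 0.82 for IGFBP6 and 0.89 for IGFBP7 (permutation adjusted p of 0.00016, 0.00103 and 0.00016). With the luminal sum it was -0.85 for IGF2 and -0.80 for IGFBP6 (permutation adjusted p of 0.000611 and 0.00127). IGFBP4 instead followed the fibroblast sum in lactation, with r = 0.82 (p = 5e-05, adjusted p = 0.00056), rho = 0.82 (p = 0.00018, adjusted p = 0.00288) and r = 0.79 without L478 and L538. Its relation with the endothelial sum in lactation was r = 0.32 (permutation adjusted p = 0.29), but in virgin libraries it was 0.87 (adjusted p = 0.00042). The difference between the stages was not tested.

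IGF2R ran the other way in lactation. Its r with the endothelial sum was -0.77 (p = 0.00046, adjusted p = 0.00286; rho -0.62, p = 0.0117, adjusted p = 0.0383), but without L478 and L538 it was -0.52 (adjusted p = 0.123), so this relation rests on those libraries. In virgin libraries IGF2R followed the luminal sum, with r = 0.70 (p = 0.00337, adjusted p = 0.0118), rho = 0.62 (p = 0.0165, adjusted p = 0.0486) and r = 0.56 without the 2 farthest samples. Its virgin r with the lymphocyte sum was 0.60 (permutation adjusted p = 0.047), but the rho of 0.50 was not called (permutation adjusted p = 0.123). Without V479 and V502 this r was still 0.60 but not called (permutation adjusted p = 0.0812). In lactation IGF2R and the luminal sum had an r of 0.64 (permutation adjusted p = 0.0235), but 0.29 without L478 and L538 (adjusted p = 0.469). IGFBP7 fell along the luminal sum in lactation, with r = -0.90 (p = 1e-05, adjusted p = 0.00016), rho = -0.86 (p = 7e-05, adjusted p = 0.00157) and r = -0.84 without L478 and L538. The relation of IGFBP5 with the fibroblast sum in virgin libraries (r = 0.76, p = 0.0119, adjusted p = 0.0333; rho 0.20, p = 0.48, adjusted p = 0.6) was -0.14 without the 2 farthest samples, and so rests on them. In all, 23 of 56 relations were called positive and 0 negative in virgin libraries, and 13 positive and 8 negative in lactating ones. Spearman rho also called 14 of the 23, 12 of the 13 and 7 of the 8. The share for other genes was not computed.

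Some of the genes also varied with each other. Of 28 pairs, 12 were called positive and 0 negative in virgin libraries by Pearson r, with p-values adjusted over 56 pair relations. Of the 12, 7 were also called by Spearman rho. Without V479 and V502, IGFBP4 was no longer called with IGFBP2 (r = 0.61) or IGFBP7 (r = 0.62; permutation adjusted p = 0.0508 for each). Nor was IGFBP5 with IGFBP6 (r = 0.36, permutation adjusted p = 0.303) or with IGFBP7 (r = 0.28, permutation adjusted p = 0.425). The rest of the 12 stayed called. The share of called pairs among other genes was not computed, so these counts are not read as a trait of the IGF genes. The closest virgin pair was IGFBP4 and IGFBP6, with r = 0.92 (p = 1e-05, adjusted p = 0.000187), rho = 0.93 (p = 1e-05, adjusted p = 0.00028) and r = 0.85 without the 2 farthest samples. In lactation 11 pairs were called positive and 5 negative, of which 10 and 5 were also called by Spearman rho. The closest was IGF2 and IGFBP7, with r = 0.93 (p = 1e-05, adjusted p = 0.000187), rho = 0.87 (p = 2e-05, adjusted p = 0.00028) and r = 0.84 without L478 and L538.

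All 5 negative pairs in lactation held IGF2R, with r of -0.79 for IGF2, -0.77 for IGFBP5, -0.76 for IGFBP6, -0.83 for IGFBP7 and -0.69 for PAPPA. Without L478 and L538 these ran from -0.44 to -0.59 and none passed (permutation adjusted p of 0.0661 to 0.222), and 4 pairs in all remained called. They were IGF2 with IGFBP6 (r = 0.78), IGF2 with IGFBP7 (0.84), IGFBP6 with IGFBP7 (0.83) and IGFBP7 with PAPPA (0.74). IGFBP2 and IGFBP5 lie next to each other in the order of RefSeq genes, and their r was 0.33 in virgin and 0.40 in lactating libraries (permutation adjusted p of 0.255 and 0.204).

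**Figure D5:**
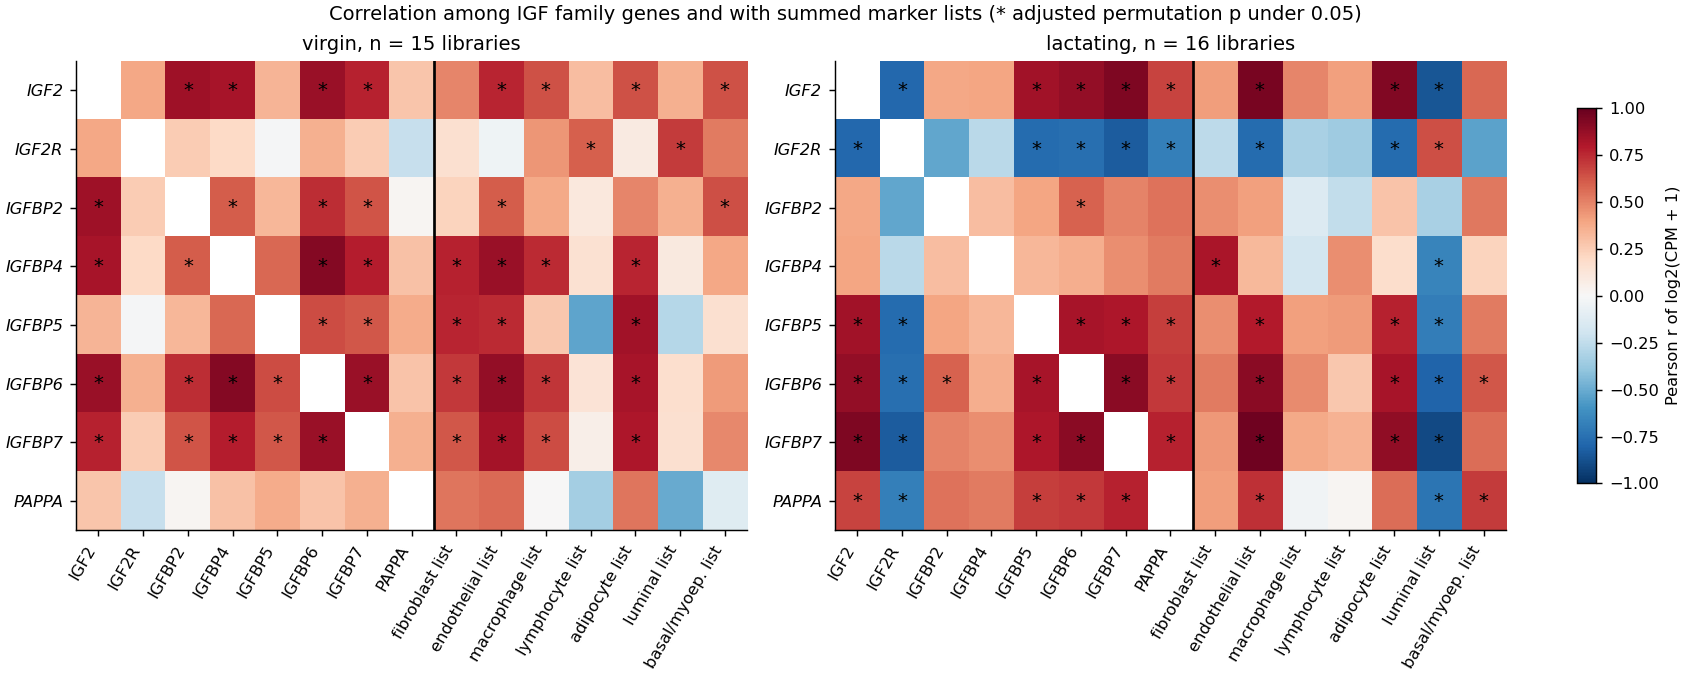
Pearson r of log2(CPM + 1) among the 8 IGF genes and with 7 summed marker lists, for 15 virgin and 16 lactating libraries, with an asterisk where the adjusted permutation p was under 0.05. The IGF2R row is negative across most genes in lactation (-0.83 with IGFBP7). In virgin libraries it has no asterisk with another IGF gene (0.26 with IGFBP7), but has one with the luminal list (0.70) and with the lymphocyte list (0.60). The lymphocyte relation was not called without V479 and V502 (permutation adjusted p = 0.0812).

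By Pearson r, levels of 2 of the 8 genes in lactation followed those of the same cow as a virgin, and by Spearman rho PAPPA did as well. The share of all rows that do so was not computed. Over all genes compared, libraries of the same cow correlated at a mean of 0.214, against -0.0157 between cows, so the count is not read as a trait of the IGF genes. IGFBP6 had an r over the 15 cows of 0.78 (permutation p = 0.0005, adjusted over 8 genes p = 0.004) and a rho of 0.74 (p = 0.00252, adjusted p = 0.0101), with r = 0.71 without the 2 farthest cows. For IGF2 the r was 0.70 (p = 0.00281, adjusted p = 0.0112) and the rho 0.78 (p = 0.00087, adjusted p = 0.00696), with r = 0.73 without the 2 farthest cows. Without L478 and L538 the r of IGF2 was 0.64 (adjusted p = 0.0677), and without V479 and V502 it was 0.65 (adjusted p = 0.0635). PAPPA gave r = 0.52 (p = 0.0467, adjusted p = 0.125) and rho = 0.65 (p = 0.0107, adjusted p = 0.0285). The other 5 ran from 0.13 for IGFBP2 to 0.45 for IGFBP7 and did not pass.

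Genes whose levels ran most alike were sought for each IGF gene over the 31 libraries with the stage means removed, as a description with no test. IGFBP7 was closest to CDH13 (r = 0.92) and to TIE1 (0.91), an endothelial receptor, among 8449 genes. IGFBP6 was closest to PDLIM1 (0.92) and PLVAP (0.92), a protein of endothelial fenestrae, and IGFBP4 to MRC2 (0.89) and COL6A2 (0.88), a collagen chain. IGF2 was closest to MTCH1 (0.91) and CLEC3B (0.91), IGF2R to TBC1D22A (0.89) and MROH1 (0.85), and IGFBP5 to FHL1 (0.86) and JMJD6 (0.85). PAPPA was closest to HECW2 (0.85) and SLC16A6 (0.82), and IGFBP2 to MRPL23 (0.80) and TBCB (0.79). Of all genes compared, 95% lay under an absolute r of 0.55 for PAPPA to 0.73 for IGF2. PLVAP, TIE1 and COL6A2 are also in the marker lists used above.

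The authors' deposited table gave log2 fold changes, coded virgin minus lactating, of -0.94 for IGFBP7, -0.92 for IGFBP5, -0.69 for IGF2R and 0.44 for IGF1R. The adjusted p-value beside each of the 8 IGF genes in the authors' deposited table was 1, as for 10132 of its 14084 rows.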

How the data were processed

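RNA of mammary epithelial organoids was sequenced by the authors as strand-specific poly-A libraries with spike-in RNA, per the labels' protocols. The deposited counts are whole numbers of reads per gene, not normalized. A second deposited table holds RPKM values, the authors' log2 fold changes and their adjusted p-values, whose method is not given in the sources used here. Tools named, without their roles, were featureCounts 1.5.2, Subread, HISAT2 2.0, StringTie 1.3.2, SAMtools and edgeR, with build UMD3.1, per the submitters' processing notes. Locus lengths recovered from counts and RPKM were proportional to whole RefSeq gene spans (middle 50% of ratios 0.966 to 1.04, 12539 rows). The ratios were scaled to their own median, so their centre was set and not found. Intronic reads were therefore taken as included, which was not tested directly. Of 14084 rows, 13407 held distinct counts.

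Counts were fitted with edgeR 4.0.16 in R 4.3.3: filterByExpr (minimum count 10, minimum total 15; 13180 rows kept), TMM factors, the quasi-likelihood test on stage alone, and Benjamini-Hochberg adjustment over all rows tested, with adjusted p under 0.05 called. glmTreat with a bound of 1 on the log2 scale tested for changes beyond 2-fold. The SE is the size of the log2 fold change divided by the square root of F, and positive values are higher in lactation. DESeq2 1.42.0, limma-voom (limma 3.58.1), other scalings and filters, the animal block and left-out libraries were alternatives. Correlations were tested by two-sided permutation with 100000 resamples.

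The gene members, the marker and axis lists and the tests were chosen with earlier results of these data known. All 10 IGF genes were to be named, with 4 genes of smallest p of each list, the called gene of smallest p against its direction, and a set of receptors, adaptors and PAPPA partners. PIK3CA and LRP2 were named outside this rule, and their calls were not followed under the other settings. The most alike genes were the 2 of highest r and a mean log2 CPM not under 2. The replicate number is the cow, so it pairs the samples, as the series' design text gives it. With group means taken out, same-cow libraries correlated at 0.00323 to 0.401 (mean 0.214), against a mean of -0.0157 between cows. A chi-square check of counts found no library deposited in duplicate. The fits were tested on simulated data.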

Additional observations from a re-analysis of the deposited data

How the results depend on the processing

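Without TMM factors 0 of the 8 IGF genes were called higher, in place of 3, with 3 higher and 14 lower among the other axis genes in place of 11 and 7, 40 higher and 27 lower among the marker genes in place of 53 and 21, and calls over all rows were 15.2% higher in place of 43.9%. Of all rows tested 10.5% were then higher and 58.8% lower. The median of all rows then moved by -0.47, IGFBP2 turned to -0.080 and IGFBP4 to -0.078, and the r of IGFBP4 with the luminal list in lactation turned to 0.30 from -0.66. The animal as a replicate block (30 samples) gave 7 IGF genes higher and turned COL1A1 to 0.0043. It changed no other count of calls by more than 1.5 times. limma-voom gave 6 IGF genes and turned PAPPA2 to 0.15, and DESeq2 gave 4. Without the 5 lettered animals 1 IGF gene, IGF2R, and 5 axis genes were higher, and called relations fell to 7 virgin pairs, 8 virgin and 13 lactating marker relations and 0 same-animal relations. Chosen after seeing the data, leaving out L478 and L538 gave 6 IGF genes, 4 lactating pairs and 1 same-animal relation. Also chosen after seeing the data, leaving out V479 and V502 gave 8 IGF genes, 1 of them over 2-fold. It gave 15 virgin marker relations in place of 23 and 1 same-animal relation. V479 and V502 held between them the highest virgin value of each of the 8 genes. Leaving out all 4 libraries gave 8 IGF genes, 1 of them over 2-fold. Same-animal relations numbered 1 without TMM factors. The cause of these moves was not tested. With any single library left out, 3 to 6 IGF genes were higher (6 without V479 or V502), 0 lower and 0 over 2-fold, 9 to 12 axis genes higher and 6 to 7 lower, 52 to 61 marker genes higher and 18 to 22 lower. Called relations then ran from 9 to 13 virgin pairs, 15 to 18 lactating pairs, 16 to 24 virgin and 18 to 24 lactating marker relations and 1 to 2 same-animal relations. Upper-quartile factors, both other filters, distinct loci and the fit without L495 kept the count at 3. Depth limits the precision of genes of low count, with as few as 14 reads in a library for IGFBP2 and for IGFBP6.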

Other observations

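The ratio of each IGF gene to IGF1R within the same library does not depend on the scaling of libraries. It was chosen after the values were seen and carries no test. IGF1R itself was called lower in lactation (log2 fold change -0.47, edgeR adjusted p = 0.00136), which lifts the ratio of any gene. The share of all rows that rise as much against IGF1R was not computed, so the ratios are not a separate result about the IGF genes. The mean log2 ratio of IGF2R to IGF1R, with a prior count of 0.5, was -1.20 ± 0.53 (SD, n = 15) in virgin and -0.06 ± 0.39 (SD, n = 16) in lactating libraries. For IGF2R, 12 of 16 lactating libraries lay above every virgin one, and the ratio was higher in lactation in 14 of 15 animals. For the other 7 genes the mean log2 ratio to IGF1R was higher in lactation by 1.00 for PAPPA, 1.14 for IGFBP4, 1.18 for IGFBP2, 1.25 for IGF2, 1.44 for IGFBP6, 1.53 for IGFBP7 and 1.65 for IGFBP5, each with 12 to 14 of 15 animals higher.

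Set against the summed endothelial markers of the same library, the IGF genes ran the other way. The endothelial sum itself had a median of 189.4 CPM in virgin and 1103.5 CPM in lactating libraries. Any gene that rose less than this sum falls in the ratio, so the fall is not a separate result about the IGF genes. IGFBP7 per unit of the endothelial sum was 0.213 at the lowest, 0.366 at the median and 1.02 at the highest virgin library, and 0.119, 0.173 and 0.201 in lactating ones. The groups did not overlap, but the share of all rows without overlap on this ratio was not computed, so this is not read as particular to IGFBP7. IGF2 had 0.286, 0.759 and 1.75 in virgin and 0.171, 0.285 and 0.375 in lactating libraries, with some overlap. This ratio was also chosen after the values were seen and carries no test.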
